A study of Mus musculus with 16 samples.

Results

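The genes described here are 32 known targets of hypoxia-inducible factor (HIF), out of 20972 genes that the array names through RefSeq transcripts. They were listed by name as known HIF targets, with no threshold on the measured values, but with earlier results of these data known. Genes for the oxygen sensors, angiogenic ligands and core glycolytic enzymes were kept as separate lists. The brightest probe of a gene's own transcripts stood for that gene. Of the 32 genes, 31 were tested among 22145 features, because the only probe of Mxi1, which encodes an antagonist of Myc, was not well above background on any of the 16 arrays. On all 16 arrays 26 members were well above background.

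RNA came from the soleus, a hindlimb muscle rich in slow oxidative fibres, of male mice. Day 0 was taken before hypoxia, days 3 and 7 while oxygen was being brought down to 10% in the course of the first week, and day 14 after a second week at a steady low level. Day 0 had 4 RNA samples, day 3 and day 7 had 3 each, and day 14 had 4. Neither strain, age, time of day nor whether each RNA sample came from its own mouse is given in the sources used here, so p-values measure only the spread between these samples. All 10 slow-fibre markers on the list, such as Myh7 and Tnni1, were well above background on every array.

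HIF is a transcription factor made of an oxygen-regulated alpha subunit and a stable beta subunit, ARNT. In normal oxygen, prolyl hydroxylases mark the alpha subunit for binding by VHL and destruction, and in low oxygen the alpha subunit escapes this, enters the nucleus and binds hypoxia response elements. Its targets raise glucose uptake and glycolysis, remove mitochondria, modify collagen and histones, and feed back on HIF itself.

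Levels are given as log2 intensity minus the 75th percentile of the same array, so a level of 0 is that percentile, and levels of different genes are not comparable. There were 2 slides: the first held days 3 and 7 together with RNA samples 1 and 2 of day 0, and the second held day 14 together with the 4 RNA samples of day 0. Slide 2 was dimmer, with a 75th percentile between 49.1 and 77.0 in intensity units against 203 to 271, and 37.9 to 42.9% of its spots well above background against 48.3 to 55.3%. Both slide 1 arrays of day 0 stood apart on the first principal component (35.4% of the variance), at -39.3 and -42.2, while the other slide 1 arrays lay between -19.7 and 9.4. The same 2 RNA samples scored -0.6 and 4.3 on slide 2. There the day 0 arrays lay between -0.6 and 11, and the day 14 arrays between 20.3 and 32.9. Every day 3 or day 7 difference from day 0, and day 14 against day 7, draws on the slide 1 day 0 arrays. Calls of members at these days are therefore given also without a slide term, within slide 1, and without the slide 1 day 0 arrays. Calls of genes on the other lists are given only from the fit with a slide term. All differences from day 0 share the day 0 samples. In whole muscle, fewer cells of a type and less RNA per cell cannot be told apart.

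Promoter sequence was looked at because HIF binds a short core motif, ACGTG or GCGTG, which reads CACGT or CACGC on the other strand. RefSeq promoters on GRCm38.p6 were found for 27 of the 32 members. In the 250 bases before the start site, 26 of these 27 genes had at least 1 match at some annotated start, against 41.5% of all 27025 genes in the table and 57.5% of its 11193 genes that were tested on the arrays. By start site, the shares were 82.1% of 39 for the members, 38.6% of all and 52.1% of the tested genes. The members' promoters were also richer in CG dinucleotides, which the motif contains, with a median of 22 against 6 in all genes and 16 in the tested genes. Mif, a secreted cytokine, was the member with no match in this window. The ACGTG form was present in 59.3% of the members, 18.5% of all genes and 23.7% of the tested genes. It overlaps the E-box CACGTG, the site of clock and Myc-family factors, which counts as a match on both strands and was found in 18.5% of the members, 6.9% of all genes and 9.4% of the tested genes. The 130 bases before the start are shown for members that passed the test at day 3 or day 7 and have a match in that stretch, with matches on either strand in capitals. The Kdm3a sequence is that of its start site 1, the only 1 of its 3 annotated starts with a match in the 250 bases.
Pfkfb3 upstream of its start site 1, chr2:11553930-11554059, minus strand: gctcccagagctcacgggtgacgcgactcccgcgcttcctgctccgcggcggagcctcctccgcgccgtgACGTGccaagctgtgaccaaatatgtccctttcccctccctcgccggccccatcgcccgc
Pfkfb3 upstream of its start site 2, chr2:11502091-11502220, minus strand: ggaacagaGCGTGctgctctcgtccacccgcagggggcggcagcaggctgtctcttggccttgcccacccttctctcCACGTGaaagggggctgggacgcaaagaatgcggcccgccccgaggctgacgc
Pfkfb4, chr9:108991772-108991901, plus strand: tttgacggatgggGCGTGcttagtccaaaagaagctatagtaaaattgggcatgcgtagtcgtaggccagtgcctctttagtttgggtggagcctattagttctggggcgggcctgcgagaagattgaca
Bnip3, chr7:138909507-138909636, minus strand: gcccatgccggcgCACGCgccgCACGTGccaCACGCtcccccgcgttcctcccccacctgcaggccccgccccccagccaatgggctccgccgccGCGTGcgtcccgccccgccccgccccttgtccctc
Kdm3a, chr6:71632918-71633047, minus strand: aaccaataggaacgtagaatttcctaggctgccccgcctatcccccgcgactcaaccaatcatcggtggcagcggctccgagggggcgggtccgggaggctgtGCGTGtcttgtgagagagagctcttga
Insig2 upstream of its start site 2, chr1:121328025-121328154, minus strand: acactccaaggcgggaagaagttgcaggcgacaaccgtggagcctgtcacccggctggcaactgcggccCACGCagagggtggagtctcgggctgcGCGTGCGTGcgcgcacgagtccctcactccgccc
Plod1, chr4:147936777-147936906, minus strand: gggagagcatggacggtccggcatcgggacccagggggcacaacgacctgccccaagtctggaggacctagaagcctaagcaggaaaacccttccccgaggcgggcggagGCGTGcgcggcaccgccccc
Jmjd6, chr11:116843450-116843579, minus strand: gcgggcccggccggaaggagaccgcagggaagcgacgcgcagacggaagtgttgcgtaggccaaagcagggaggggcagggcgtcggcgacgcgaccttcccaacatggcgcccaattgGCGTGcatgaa
Ankzf1, chr1:75192030-75192159, plus strand: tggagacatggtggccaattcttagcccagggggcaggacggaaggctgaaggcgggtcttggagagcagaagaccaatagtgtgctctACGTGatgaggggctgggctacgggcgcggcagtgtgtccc
Pfkfb3, Pfkfb4, Bnip3, Kdm3a and Insig2 rose at day 7, while Plod1 and Jmjd6 fell at day 7 and Ankzf1 fell at day 3. The motif was thus present in the promoters of members called in both directions: in 6 of the 6 called higher at day 7 that have a sequence, and in 2 of the 2 called lower. It was also present in 17 of the 18 members with a sequence that passed in neither direction at day 7. A match is a description of the letters and not evidence of binding.

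**Figure D1:**
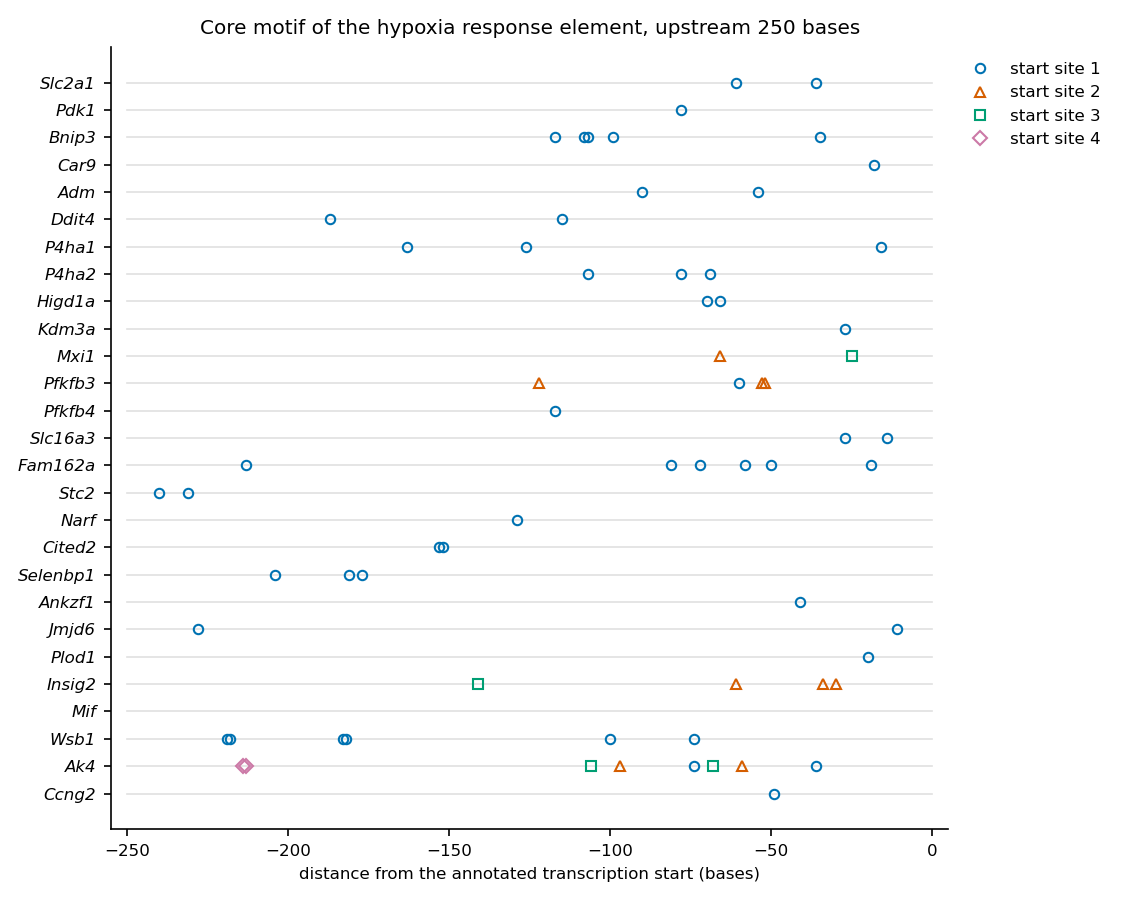
Position of each core motif match (either strand) in the 250 bases before the annotated start sites of the 27 members with a RefSeq promoter; the x axis is the distance from the start in bases, and symbols separate start sites of 1 gene. The row of Mif is empty, and Bnip3 has 5 matches, between -117 and -35.

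During the first week of falling oxygen, the members did not move as a block. At day 3, 2 of 31 members passed the test against day 0, both lower: Kdm4b, a histone demethylase, and Ankzf1, a factor in the release of stalled peptides from ribosomes. That is 6.45% of the members, against 6.09% of all features (2.27% higher and 3.82% lower), so the share was close to the background. At day 7, 11 of 31 members passed (35.5%), 7 higher and 4 lower, against 23.8% of all features (15.6% higher and 8.15% lower). The 7 that rose were Pfkfb3, Pfkfb4, Bnip3, Bnip3l, Selenbp1, Kdm3a and Insig2, and the 4 that fell were Plod1, Plod2, Jmjd6 and Kdm4b. The median difference of the members was 0.12 at day 3 and 0.22 at day 7, beside 0.06 and 0.09 over all features. Arrays without overlap were common with so few samples. On slide 1, 7 members lay wholly above and 8 wholly below day 0 at day 3, against 24.7% and 18.4% of all features. For day 7 against day 3, 6 lay wholly above and 5 wholly below, against 11.2% and 6.06%.

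At day 14, after a week at steady low oxygen, 0 of 31 members passed against day 0 in limma's test, where 10 had an unadjusted p under 0.05 (8 higher, 2 lower). Among all 22145 features 0.402% passed and 4564 had an unadjusted p under 0.05. The members' median difference was 0.10, beside 0.06 over all features. Day 7 against day 3 called 0 members (9 at an unadjusted p under 0.05), with 0.677% of all features called and 3314 under that unadjusted p. Day 14 against day 7 also called 0 (9 at an unadjusted p under 0.05), with 2.3% of all features called and 4898 under the unadjusted p. The F-test over the 3 differences from day 0 called 9 of 31 members (29%) and 17% of all features. These 9 were Bnip3l, Mif, Pfkfb3, Pfkfb4, Jmjd6, Plod1, Bhlhe40, Kdm4b and Ankzf1.

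**Figure D2:**
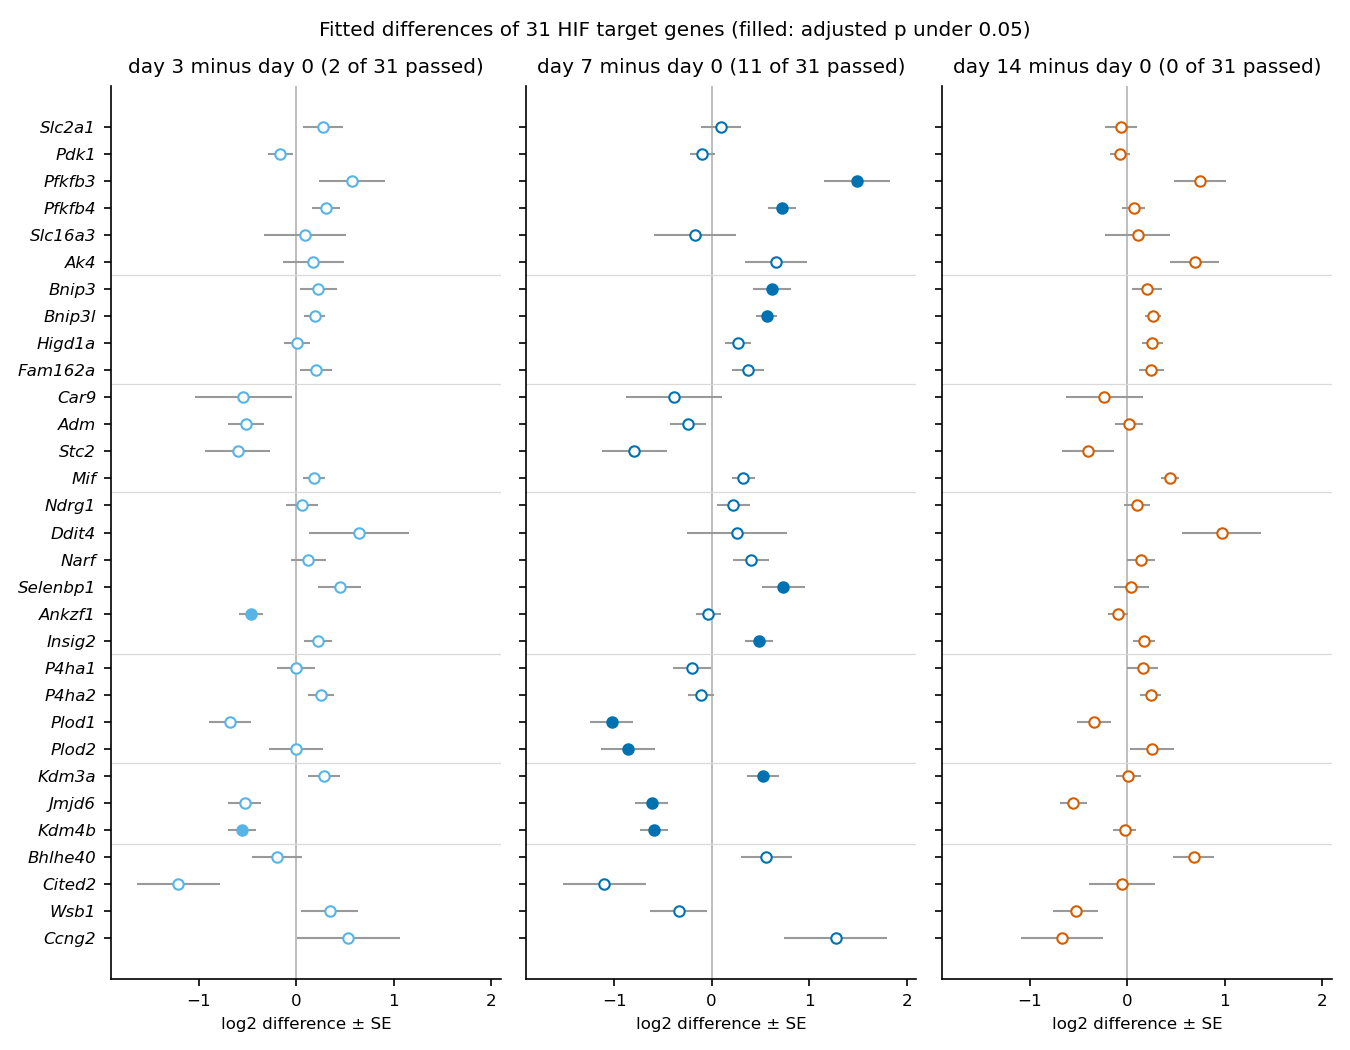
Fitted log2 differences from day 0 (x axis, ± SE) of the 31 tested members at days 3, 7 and 14, ordered by role and separated by grey lines, with filled points for an adjusted p under 0.05. At day 7 the points spread from -1.10 to 1.49 and 11 are filled, while at day 14 none is.

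The call at day 7 depended on how the slide was treated. Of the 11 members called, 2 (Pfkfb3 and Pfkfb4) also passed without a slide term, within slide 1, and without the slide 1 day 0 arrays. Kdm4b passed under 2 of these 3 treatments, Bnip3l, Jmjd6 and Plod1 under 1, and the other 5 under none. Of the 2 members called at day 3, none passed under any of the 3. Some members not called in the main fit, with its slide term, passed under another treatment. At day 7, P4ha2 passed lower without the slide 1 day 0 arrays (adjusted p = 0.00971), and Stc2 lower within slide 1 (adjusted p = 0.0386). At day 14 without a slide term, Bnip3l, Pfkfb3, Higd1a, P4ha2, Bhlhe40, Mif and Ak4 passed higher and Jmjd6 lower (adjusted p from 0.0141 to 0.0464). When day 0 RNA sample 2 was left out with both its arrays, 0 of 31 members passed at day 7, and 3 did without day 0 RNA sample 1. The loss was general: without day 0 RNA sample 2, 107 of all 22145 features passed, against 5263 in the main fit. Scaling mattered too: with the 75th percentile taken over probes well above background on all arrays, 3 members passed higher and 4 lower, the share of all called features that were higher went from 65.7% to 43.8%, and the median of all features from 0.09 to -0.06. None of the called differences of the members changed sign in any setting tried. Likewise, 73% of all day 14 calls were higher, and 51.6% after quantile normalization, and for day 7 against day 3 the share was 66%, and 41.3% with the other 75th percentile.

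**Figure D3:**
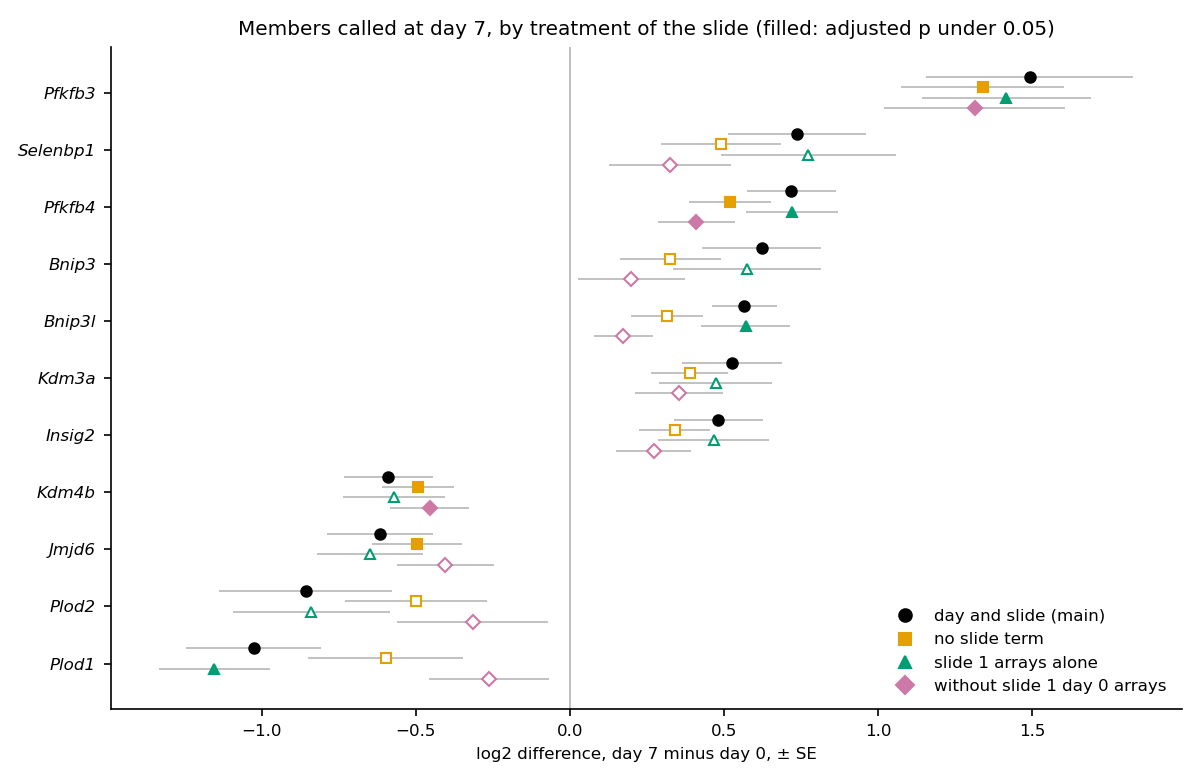
Log2 difference, day 7 minus day 0 (x axis, ± SE), of the 11 members called at day 7, under 4 treatments of the slide; filled symbols have an adjusted p under 0.05. Pfkfb3 and Pfkfb4 are filled under all 4, and the differences of Plod1 run from -1.15 within slide 1 to -0.26 without the slide 1 day 0 arrays.

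Among members that handle sugar, lactate and nucleotides, 2 of 6 rose at day 7 and none fell. Both were members of the family that makes and degrades the sugar bisphosphate, the activator of phosphofructokinase. Pfkfb3 encodes the isoform with the strongest bias towards synthesis. Pfkfb3 had slide 1 levels of 1.04 and 1.60 at day 0, 1.78, 1.65 and 2.02 at day 3 and 2.57, 2.42 and 3.22 at day 7. Slide 2 gave 1.33, 1.85, 1.45 and 1.05 at day 0 and 2.78, 1.88, 1.51 and 2.51 at day 14. All day 7 arrays lay above all day 3 arrays and above all 6 day 0 arrays of both slides, while the day 14 arrays overlapped day 0. The fitted difference was 0.57 ± 0.34 (SE) at day 3, 1.49 ± 0.34 (adjusted p = 0.0082), a 2.81-fold rise, at day 7, and 0.75 ± 0.27 (adjusted p = 0.152) at day 14. The day 7 difference was 1.34 without a slide term, 1.42 within slide 1 and 1.31 without the slide 1 day 0 arrays, with adjusted p from 0.00796 to 0.0418. Without day 0 RNA sample 1 or 2 the adjusted p was 0.0706 or 0.0669. Its other probe, for a different transcript, differed by 1.27 at day 7.

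Pfkfb4 encodes a second isoform of that enzyme. The slide 1 arrays read 1.78 and 1.5 for Pfkfb4 at day 0, 1.88, 1.84 and 2.1 at day 3 and 2.31, 2.36 and 2.40 at day 7. The day 0 arrays of slide 2 read 2.03, 1.85, 2.0 and 1.90, and those of day 14 read 1.96, 2.34, 2.01 and 1.75. The day 7 arrays again lay above every day 3 and every day 0 array, and the day 14 arrays overlapped day 0. The difference was 0.30 ± 0.15 at day 3, 0.72 ± 0.15 (adjusted p = 0.0055) at day 7, a 1.65-fold rise, and 0.07 ± 0.12 (adjusted p = 0.787) at day 14. From day 7 to day 14 it was -0.65 ± 0.17 (adjusted p = 0.0586), which did not pass. The day 7 difference was 0.52 without a slide term, 0.72 within slide 1 and 0.41 without the slide 1 day 0 arrays, with adjusted p from 0.0217 to 0.0421. Without day 0 RNA sample 2 the adjusted p was 0.0932.

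The other 4 members of the group passed in no comparison of the main fit. Slc2a1, the glucose transporter GLUT1, differed from day 0 by 0.28 ± 0.21 at day 3, 0.10 ± 0.21 at day 7 (95% confidence interval -0.35 to 0.54) and -0.06 ± 0.17 at day 14. Pdk1, a kinase that closes pyruvate entry to the citric acid cycle, had an interval at day 7 of -0.37 to 0.18 around -0.10. The monocarboxylate exporter Slc16a3 (MCT4) stood at -0.18 ± 0.42 at day 7. Its day 0 levels ran from 3.27 to 4.66, and RNA sample 1 was above sample 2 on both slides. Ak4, a mitochondrial adenylate kinase, differed by 0.66 ± 0.32 (adjusted p = 0.146) at day 7 and 0.69 ± 0.25 (adjusted p = 0.156) at day 14. Without a slide term Ak4 passed at day 14, at 0.785 (adjusted p = 0.0391).

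**Figure D4:**
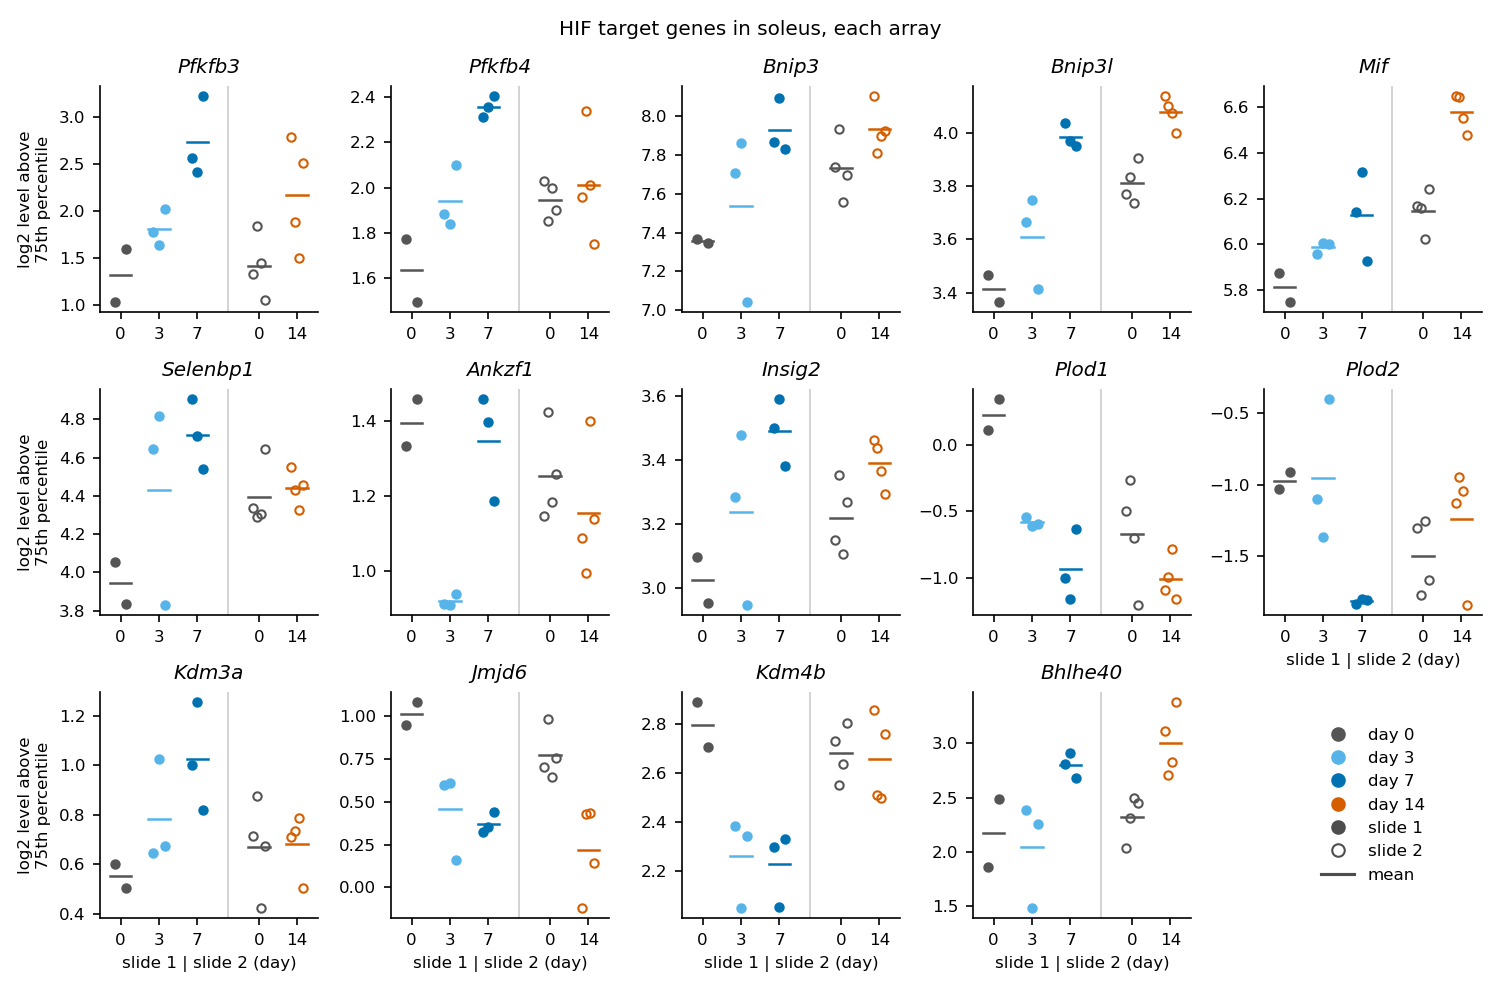
Log2 level on each array (y axis, relative to the 75th percentile of the array) of 14 members, those called in any comparison together with Bhlhe40 and Mif, by day on slide 1 (filled) and slide 2 (open), with bars at group means. Pfkfb3 and Pfkfb4 lie above all day 0 arrays at day 7, and Mif, Bhlhe40 and Bnip3l lie above the slide 2 day 0 arrays at day 14.

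Of 4 mitochondrial members, 2 rose at day 7, and both are receptors on the outer mitochondrial membrane that recruit the autophagy machinery. Levels of Bnip3 on slide 1 were 7.37 and 7.35 before hypoxia, 7.71, 7.86 and 7.04 at day 3 and 7.87, 8.10 and 7.83 at day 7. At day 0 on slide 2 it stood at 7.74, 7.93, 7.56 and 7.70, and at day 14 at 8.10, 7.81, 7.90 and 7.93. Day 7 arrays were above both slide 1 day 0 arrays but overlapped those on slide 2, and 1 day 3 array was the lowest of all. The difference at day 7 was 0.62 ± 0.19 (adjusted p = 0.0333), and at day 14 0.20 ± 0.16 (adjusted p = 0.482). It was 0.33 without a slide term, 0.58 within slide 1 and 0.20 without the slide 1 day 0 arrays, and passed under none of them. Of the other probes of Bnip3, 1 differed by 0.73 and 1 by -0.10 at day 7.

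Bnip3l (NIX) is the relative of Bnip3 known for clearing mitochondria from maturing red cells. On slide 1, Bnip3l stood at 3.47 and 3.37 on the day 0 arrays, 3.67, 3.75 and 3.42 at day 3, and 4.04, 3.97 and 3.95 at day 7. On slide 2 the levels were 3.77, 3.84, 3.74 and 3.90 at day 0 and 4.14, 4.10, 4.07 and 4.00 at day 14. At day 7 all arrays were above all day 3 and all 6 day 0 arrays, and at day 14 all arrays were above the slide 2 day 0 arrays. The rise at day 7 was 0.57 ± 0.11 (adjusted p = 0.00445), and the day 14 difference was 0.27 ± 0.09 (adjusted p = 0.131). The day 7 value was 0.32 without a slide term, 0.57 within slide 1, where it passed, and 0.17 without the slide 1 day 0 arrays. All 4 Bnip3l probes were higher at day 7, by 0.41 to 0.82. Without a slide term Bnip3l also passed at day 14, at 0.41 (adjusted p = 0.0307). Of 9 tested red cell markers, 0 rose and 1 fell at day 7 (median -0.29), and 6 rose at day 14 (median 1.53). Their summed level was 685 to 879 at day 0, 700 to 944 at day 7 on slide 1, 794 to 1190 at day 0 on slide 2 and 2200 to 3730 at day 14, and their part in the Bnip3l levels was not tested.

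Higd1a, a small protein of the inner mitochondrial membrane that limits damage in low oxygen, differed by 0.27 ± 0.13 (adjusted p = 0.166) at day 7 and 0.26 ± 0.11 (adjusted p = 0.2) at day 14. Fam162a, a pro-apoptotic mitochondrial protein, differed by 0.37 ± 0.16 (adjusted p = 0.118) at day 7 and 0.25 ± 0.13 (adjusted p = 0.3) at day 14. None of the 4 mitochondrial members besides Bnip3 and Bnip3l passed in the main fit. Without a slide term Higd1a passed at day 14 (adjusted p = 0.0436). With their brightest probes all 4 members were above 0 at days 7 and 14 under each slide treatment. Another Higd1a probe stood at -0.03 at day 7 and 0.145 at day 14, and a Bnip3 probe at -0.10 and -0.03. The sign at day 3 depended on the slide treatment: Bnip3, Bnip3l and Higd1a stood at 0.23, 0.19 and 0.01 in the fit, and at -0.20, -0.20 and -0.22 without the slide 1 day 0 arrays.

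Of 4 members that encode collagen hydroxylases, 2 fell at day 7, Plod1 and Plod2, and none rose. The enzymes hydroxylate lysine (Plod1, Plod2) or proline (P4ha1, P4ha2) in procollagen and use oxygen as a substrate. Plod1 had slide 1 levels of 0.11 and 0.34 at day 0, -0.54, -0.61 and -0.60 at day 3 and -1.0, -1.16 and -0.63 at day 7. Slide 2 gave -0.50, -0.27, -0.70 and -1.20 at day 0 and -1.09, -0.99, -0.78 and -1.16 at day 14. Within slide 1 every day 7 array was below every day 3 array, and every day 3 array was below both day 0 arrays. On slide 2 the day 0 arrays spread widely and overlapped day 14. Plod1 fell by 1.03 ± 0.22 at day 7 (adjusted p = 0.00647), after -0.68 ± 0.22 (adjusted p = 0.0779) at day 3, which was 0.08 without the slide 1 day 0 arrays. The day 7 difference was -0.60 without a slide term, -1.15 within slide 1, where it passed, and -0.26 without the slide 1 day 0 arrays. A second probe differed by -0.50.

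The slide 1 arrays read -1.03 and -0.91 for Plod2 at day 0, -1.10, -1.36 and -0.40 at day 3 and -1.83, -1.80 and -1.80 at day 7. The day 0 arrays of slide 2 read -1.30, -1.77, -1.25 and -1.66, and those of day 14 read -1.13, -0.95, -1.04 and -1.84. The 3 day 7 values lay close together and below both slide 1 day 0 arrays. On slide 2 the lowest array of day 0 and the lowest of day 14 were not well above background for Plod2, so their order against day 7 is not given. Plod2 fell by 0.86 ± 0.28 at day 7 (adjusted p = 0.0409), with no call at day 3 (0.00 ± 0.28) or day 14 (0.26 ± 0.22). The day 7 value was -0.50 without a slide term, -0.84 within slide 1 and -0.32 without the slide 1 day 0 arrays, and passed under none. P4ha1 and P4ha2 stood at -0.20 ± 0.20 and -0.11 ± 0.13 at day 7. Without the slide 1 day 0 arrays P4ha2 was -0.51 at day 7, and passed (adjusted p = 0.00971). At day 14 P4ha2 differed by 0.24 ± 0.11 (adjusted p = 0.224), with all arrays above all slide 2 day 0 arrays. Of 10 fibroblast and matrix markers, 1 rose and 1 fell at day 7 (median -0.02), and their summed level was 950 to 1010 at day 0 and 848 to 1330 at day 7 on slide 1. Of 8 tendon markers none passed at day 7 (median 0.49). Their part in the Plod values was not tested.

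The 3 members that are oxygen-dependent demethylases or related enzymes all passed at day 7, in both directions. Kdm3a removes methyl groups from a lysine of histone H3. Levels of Kdm3a on slide 1 were 0.60 and 0.51 before hypoxia, 0.65, 1.03 and 0.68 at day 3 and 1.0, 1.25 and 0.82 at day 7. At day 0 on slide 2 it stood at 0.71, 0.87, 0.42 and 0.67, and at day 14 at 0.71, 0.73, 0.79 and 0.51. The day 7 arrays were above the slide 1 day 0 arrays, overlapped those on slide 2, and the day 14 arrays lay within the day 0 range. Kdm3a rose by 0.53 ± 0.16 at day 7 (adjusted p = 0.0317) and stood at 0.01 ± 0.13 at day 14. Without a slide term, within slide 1 and without the slide 1 day 0 arrays the day 7 value was 0.39, 0.47 and 0.35, and it passed under none.

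Kdm4b, which acts on another lysine of the same histone, was lower on both early days. On slide 1, Kdm4b stood at 2.89 and 2.71 on the day 0 arrays, 2.39, 2.05 and 2.35 at day 3, and 2.30, 2.05 and 2.33 at day 7. On slide 2 the levels were 2.73, 2.55, 2.64 and 2.81 at day 0 and 2.86, 2.51, 2.50 and 2.76 at day 14. Every day 3 and day 7 array was below every day 0 array of both slides, and day 14 overlapped day 0. Kdm4b fell by 0.56 ± 0.14 at day 3 (adjusted p = 0.0394) and by 0.59 ± 0.14 at day 7 (adjusted p = 0.0118). At day 14 the difference was -0.03 ± 0.12, and day 14 against day 7 gave 0.56 ± 0.17 (adjusted p = 0.0821). The day 7 value was -0.49 without a slide term and -0.46 without the slide 1 day 0 arrays, where it passed, and -0.57 within slide 1, where it did not (adjusted p = 0.0616). The day 3 call was lost under all 3 treatments, with adjusted p from 0.059 to 0.155.

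Jmjd6, an arginine demethylase and lysine hydroxylase, was the one member below day 0 on all arrays of day 3, day 7 and day 14 of the same slide. Jmjd6 had slide 1 levels of 0.95 and 1.08 at day 0, 0.60, 0.61 and 0.16 at day 3 and 0.32, 0.35 and 0.44 at day 7. Slide 2 gave 0.71, 0.98, 0.65 and 0.76 at day 0 and -0.12, 0.43, 0.43 and 0.14 at day 14. Neither slide showed overlap with its own day 0 arrays. The difference was -0.53 ± 0.17 (adjusted p = 0.0826) at day 3, -0.62 ± 0.17 (adjusted p = 0.0219) at day 7 and -0.55 ± 0.14 (adjusted p = 0.0788) at day 14, of which the day 7 fall passed. At day 7 it was -0.50 without a slide term, where it passed, -0.65 within slide 1 and -0.40 without the slide 1 day 0 arrays. Within a slide, 8 members lay wholly below day 0 at day 7 and 1 at day 14, against 21.6% and 4.1% of all features.

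None of the 4 tested regulators of transcription, cell cycle and ubiquitination passed in a comparison of 2 days in the main fit. Bhlhe40 (DEC1), a repressor that also acts on the clock, had the smallest F-test p of this group (adjusted p = 0.0364). The slide 1 arrays read 1.86 and 2.48 for Bhlhe40 at day 0, 2.39, 1.48 and 2.26 at day 3 and 2.81, 2.91 and 2.68 at day 7. The day 0 arrays of slide 2 read 2.04, 2.32, 2.50 and 2.45, and those of day 14 read 3.11, 2.71, 2.83 and 3.38. Day 7 arrays were above day 3 and day 0 on slide 1, and day 14 arrays were above day 0 on slide 2, while day 3 overlapped day 0. The difference was 0.56 ± 0.26 (adjusted p = 0.135) at day 7, 0.68 ± 0.21 (adjusted p = 0.117) at day 14, and 0.76 ± 0.24 (adjusted p = 0.161) for day 7 against day 3. On a list of 13 tested clock genes, 3 fell at day 3 (median -0.45). Against day 0 at day 7, 2 rose and 1 fell (median 0.44). From day 3 to day 7, 6 of the 13 rose (median 0.99), where 0.677% of all features were called. The largest of these rises were Ciart at 4.72 ± 0.86 (adjusted p = 0.0268) and Dbp at 3.26 ± 0.32 (adjusted p = 0.00146). At day 14, 0 of 13 passed against day 0 (median 0.41). The time of sampling is not given, and the part of the clock in the Bhlhe40 levels was not tested.

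Cited2, which competes with HIF for the coactivator CBP and its relative, had among the members the lowest fitted differences at days 3 and 7, -1.21 ± 0.43 (adjusted p = 0.103) and -1.10 ± 0.43 (adjusted p = 0.0781). Levels of Cited2 on slide 1 were 4.48 and 4.33 before hypoxia, 3.47, 2.60 and 3.35 at day 3 and 3.59, 2.36 and 3.78 at day 7. At day 0 on slide 2 it stood at 3.68, 3.21, 3.21 and 3.14, and at day 14 at 3.88, 2.86, 2.58 and 3.72. All day 3 and day 7 arrays lay below both slide 1 day 0 arrays, but slide 2 differed from slide 1 by -0.80 and -1.12 for the same RNA samples, and another probe stood at -0.15 at day 7. Ccng2, an atypical cyclin that slows the cell cycle, stood at 1.27 ± 0.53 (adjusted p = 0.0974) at day 7. It was well above background on 1 of 2 day 0 arrays, 3 of 3 at day 3 and 3 of 3 at day 7 on slide 1, and on none of slide 2. Wsb1, a ubiquitin ligase subunit that acts on VHL, stood at -0.34 ± 0.29 at day 7 and -0.53 ± 0.23 (adjusted p = 0.222) at day 14, where no array was well above background.

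Of 4 secreted or surface proteins none passed in a comparison of 2 days in the main fit, and Mif, a cytokine, had the smallest F-test p (adjusted p = 0.0233). On slide 1, Mif stood at 5.87 and 5.75 on the day 0 arrays, 5.96, 6.0 and 6.0 at day 3, and 6.14, 6.32 and 5.93 at day 7. On slide 2 the levels were 6.17, 6.16, 6.02 and 6.24 at day 0 and 6.65, 6.65, 6.55 and 6.48 at day 14. All day 14 arrays lay above all day 0 arrays, and on slide 1 all day 3 and day 7 arrays lay above day 0. The day 14 difference was 0.44 ± 0.09 (adjusted p = 0.0578), the smallest adjusted p of a member at that day. The other 2 probes of Mif stood on the same side at day 14, at 0.23 each without passing, but on the other side at day 7, at -0.12 and -0.15 against 0.33. Adm, the vasodilator adrenomedullin, stood at -0.52 ± 0.18 (adjusted p = 0.105) at day 3 and 0.02 ± 0.15 at day 14. Stc2, a secreted glycoprotein, stood at -0.79 ± 0.33 (adjusted p = 0.101) at day 7, and passed within slide 1 at -0.89 (adjusted p = 0.0386). Car9, the surface carbonic anhydrase often used as a hypoxia marker in tumours, was close to background: it was well above it on all 8 slide 1 arrays and on none of slide 2, with -0.39 ± 0.50 at day 7.

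In the remaining group of stress, growth and lipid genes, 2 of 6 rose at day 7 and 1 fell at day 3. Selenbp1, an oxidase of methanethiol, rose by 0.74 ± 0.22 at day 7 (adjusted p = 0.0299). Selenbp1 had slide 1 levels of 4.06 and 3.84 at day 0, 4.64, 4.82 and 3.83 at day 3 and 4.91, 4.71 and 4.54 at day 7. Slide 2 gave 4.34, 4.29, 4.31 and 4.65 at day 0 and 4.55, 4.43, 4.32 and 4.46 at day 14. Day 7 was above day 0 on slide 1, but 1 day 3 array was at the level of day 0, and day 14 overlapped day 0. The day 7 value was 0.49, 0.77 and 0.32 under the 3 other treatments of the slide, without a call.

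Insig2 holds back sterol synthesis by keeping SREBP in the endoplasmic reticulum. The slide 1 arrays read 3.10 and 2.95 for Insig2 at day 0, 3.29, 3.48 and 2.95 at day 3 and 3.50, 3.59 and 3.38 at day 7. The day 0 arrays of slide 2 read 3.15, 3.35, 3.11 and 3.27, and those of day 14 read 3.46, 3.44, 3.37 and 3.29. Day 7 lay above all 6 day 0 arrays, overlapped day 3, and day 14 overlapped day 0. Insig2 rose by 0.48 ± 0.14 at day 7 (adjusted p = 0.0283), with 0.34, 0.47 and 0.27 under the other treatments of the slide, again without a call. Its other probe, for a different transcript, stood at 0.44 at day 3 and 0.35 at day 7, without passing. Levels of Ankzf1 on slide 1 were 1.33 and 1.46 before hypoxia, 0.91, 0.91 and 0.94 at day 3 and 1.46, 1.40 and 1.19 at day 7. At day 0 on slide 2 it stood at 1.15, 1.42, 1.18 and 1.26, and at day 14 at 1.09, 0.99, 1.40 and 1.14. All day 3 arrays were below every other array. Ankzf1 fell by 0.46 ± 0.13 at day 3 (adjusted p = 0.0477), stood at -0.03 ± 0.13 at day 7, and lost its call under each other treatment of the slide (adjusted p from 0.0863 to 0.146).

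Ddit4 (REDD1), an inhibitor of the mTOR complex that also responds to glucocorticoids and fasting, varied widely between samples of 1 day: its levels were 3.27 and 2.38 on the slide 1 day 0 arrays and 3.29, 2.44, 2.95 and 4.10 on slide 2. It differed by 0.64 ± 0.51 at day 3, 0.26 ± 0.51 at day 7 and 0.97 ± 0.41 (adjusted p = 0.207) at day 14. On a list of 13 tested FoxO and glucocorticoid targets, 3 rose at day 7 and none fell (median 0.00): Pdk4 by 1.18 ± 0.34 (adjusted p = 0.0249), Fbxo32 by 0.73 ± 0.21 (adjusted p = 0.0272) and Gadd45a by 0.74 ± 0.24 (adjusted p = 0.0433). Whether such signals bear on the Ddit4 values was not tested. Ndrg1, a stress-responsive protein, stood at 0.22 ± 0.17 at day 7, and Narf, a nuclear protein that binds prelamin A, at 0.40 ± 0.18 (adjusted p = 0.123).

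The surrounding pathway can be read from lists that hold no member. Calls on these lists, and on the marker lists, are from the main fit alone and are not given under other slide treatments. Of 9 tested genes for HIF subunits and oxygen sensors, 3 rose at day 7 and none fell (median 0.22): Egln2, a prolyl hydroxylase, by 0.57 ± 0.10 (adjusted p = 0.00352), Vhl by 0.57 ± 0.16 (adjusted p = 0.0245) and Arnt by 0.53 ± 0.15 (adjusted p = 0.0263). Hif1a stood at 0.04 ± 0.15 (adjusted p = 0.871) and Epas1 at 0.22 ± 0.18 (adjusted p = 0.417). At day 3, Egln2 rose by 0.37 ± 0.10 (adjusted p = 0.045), and at day 14 none of the 9 passed.

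Of 18 core glycolytic genes, 3 rose at day 7 and 5 fell (median -0.15). Those that rose were Aldoc at 0.70 ± 0.20 (adjusted p = 0.0214), Ldha at 0.50 ± 0.14 (adjusted p = 0.0213) and Gpi1 at 0.38 ± 0.12 (adjusted p = 0.0299). Those that fell were Pfkl, Eno1, Pkm, Pfkp and Tpi1, from -1.52 ± 0.31 (adjusted p = 0.00564) for Pfkl to -0.48 ± 0.16 (adjusted p = 0.046) for Tpi1. Of 11 angiogenic genes, Angpt1 rose by 1.07 ± 0.21 (adjusted p = 0.00497) and Angpt2 by 0.95 ± 0.25 (adjusted p = 0.0152) at day 7, and Vegfb, at -0.53 ± 0.18 (adjusted p = 0.0454), fell. Vegfa, the main angiogenic growth factor, stood at -0.11 ± 0.17 (adjusted p = 0.697).

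Of 19 other tested HIF targets, 3 rose and 3 fell at day 7 (median -0.12). Vldlr, a lipoprotein receptor, rose by 1.1 ± 0.15 (adjusted p = 0.00176), Pgm1, which links glycogen and glucose, by 0.79 ± 0.13 (adjusted p = 0.00325), and Ankrd37 by 0.64 ± 0.13 (adjusted p = 0.0062). Tfrc, the transferrin receptor, at -1.63 ± 0.28 (adjusted p = 0.00348), Ppp1r3c, a glycogen-targeting subunit, at -1.05 ± 0.25 (adjusted p = 0.0109), and Cox4i2, a cytochrome oxidase isoform, at -0.54 ± 0.15 (adjusted p = 0.0235), fell. At day 14, 1 of the 19 passed, Ankrd37 at 1.14 ± 0.11 (adjusted p = 0.00139), where none of the 31 members did. Macrophage markers were lower at day 7: 5 of 10 fell and none rose (median -0.97), with a summed level of 110 to 119 at day 0 and 77.3 to 78.6 at day 7 on slide 1. Of 12 endothelial markers 2 rose and 2 fell at day 7, and 8 were above 0 (median 0.22). Their summed level was 152 to 158 at day 0 and 201 to 225 at day 7 on slide 1. On slide 2 it was 167 to 191 at day 0 and 209 to 239 at day 14. Of 8 adipocyte markers 1 rose at day 7 and none fell (median 0.36), with a summed level of 372 to 395 at day 0 and 509 to 618 at day 7. Of the 10 slow-fibre markers 4 fell at day 7 and none rose (median -0.19): Tnni1 by 1.05, Casq2 by 0.99, Tnnc1 by 0.52 and Myoz2 by 0.42, while Myh7 stood at 0.15. Their summed level was 7160 to 7240 at day 0 and 6450 to 7230 at day 7 on slide 1. Of 5 tested neutrophil markers S100a8 and S100a9 fell, by 3.04 and 3.47, and Csf3r rose by 0.36, with a summed level of 128 to 153 at day 0 and 158 to 193 at day 7. Of 7 pericyte and smooth muscle markers Acta2 and Myh11 fell, by 0.83 and 0.59, and Higd1b rose by 0.73, with a sum of 60.3 to 69.2 at day 0 and 48.2 to 56 at day 7. The part of these cells and fibres in the members' values was not tested.

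Read along the time course, the 7 members that rose at day 7 had smaller fitted differences from day 0 at day 14, an order that for Bnip3 and Bnip3l turned with the slide treatment. These 7 were chosen by their day 7 values, so smaller differences on another day can follow from that choice alone. The same holds for the members that fell at day 7, and no course over time is concluded. Pfkfb4, Kdm3a and Selenbp1 stood at 0.07, 0.01 and 0.04 at day 14, Bnip3 and Insig2 at 0.20 and 0.17, and Bnip3l and Pfkfb3 at 0.27 and 0.75. Without a slide term Bnip3l was 0.32 at day 7 and 0.41 at day 14, and without the slide 1 day 0 arrays 0.17 and 0.27. For Bnip3 the values were 0.326 and 0.330, and 0.199 and 0.203. The direct comparison of day 14 with day 7 called none of them, and it crosses slides that are joined only by 2 day 0 RNA samples. The adjusted p was 0.0586 for Pfkfb4, 0.136 for Kdm3a, 0.143 for Selenbp1 and 0.18 for Bnip3l. Of the members that fell at day 7, Plod2 stood at 1.11 ± 0.33 (adjusted p = 0.0798), Kdm4b at 0.56 ± 0.17 (adjusted p = 0.0821) and Plod1 at 0.69 ± 0.25 (adjusted p = 0.137) in the same comparison. For Plod1 this direction turned too: its differences from day 0 were -0.60 at day 7 and -0.67 at day 14 without a slide term, and -0.26 and -0.34 without the slide 1 day 0 arrays. Within slides, 14 members lay wholly above day 0 at day 7 and 4 at day 14 (Bnip3l, Bhlhe40, Mif and P4ha2), against 33.5% and 10% of all features, with 2 day 0 arrays on slide 1 and 4 on slide 2.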

How the data were processed

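RNA was labelled with Cy3 and run on Agilent 1-colour arrays. The deposited scanner files hold, per the file headers, the linear intensity of each spot after background subtraction by Agilent Feature Extraction 11.0.1.1, and the deposited series table, also an intensity, served as an alternative. From each log2 intensity the array's 75th percentile over non-control spots was subtracted, and spots of a probe were averaged. Of 55681 probes, 27656 (49.7%) were named through RefSeq transcripts. Probes well above background on at least 3 arrays were kept. Days were compared with limma 3.58.1 (R 4.3.3, statmod 1.5.0), 2-sided, with day and slide as fixed terms and RNA sample as a random block (correlation 0.448, 11 residual and 2.45 prior degrees of freedom). The Benjamini-Hochberg adjustment covered the 22145 features of a comparison, with 0.05 as the threshold for passing. Marker sums add 2 to the power of the levels. The fit was also run on data simulated from its own model. These hold no arrays that stand apart, so they cannot show how the slide 1 day 0 arrays affect the calls. Alternatives changed the slide treatment, background correction, scaling, filter, probe choice, replicate block and samples. The planned normexp correction used median signals, since the files analysed hold no mean signal. Array values are given for each member called in any comparison and, in a group of roles without a call, for the one with the smallest F-test p; those of Cited2 and Ddit4 were added after their values were seen. The members and lists were chosen with earlier results of these data known. The design text speaks of 4 samples per day, and any others of days 3 and 7 were not used here. Precision is limited by the number of samples. Figures were drawn with Python 3.11.15 and Matplotlib 3.10.9.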

Additional observations from a re-analysis of the deposited data

Results flagged for a closer look

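In 62 groups of 4 samples (31 members, day 0 and day 14 on slide 2), 4 had a sample far from the other 3, where chance flags about 1 in 20 groups. Of these, 3 concern day 0 RNA sample 4. Fam162a stood at 5.356 in that sample, with the nearest of the others at 5.073. Selenbp1 stood at 4.647 there, with the nearest at 4.336. Ccng2 stood at -4.328 there, with the nearest at -2.583, and was not well above background on these arrays. Cited2 stood at 3.675 in day 0 RNA sample 1, with the nearest at 3.209. No explanation of these values was tested.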

How the results depend on the processing

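Counts of members called, out of 31, moved with the slide treatment, the background correction, the filter on dim probes, the scaling, the probe choice and the day 0 samples. At day 3 (2 in the main analysis) the count was 0 with no slide term, within slide 1, without the slide 1 day 0 arrays and with no filter on dim probes, 1 with the mean of a gene's probes, 5 with the series table or with only probes above background on all arrays, and 6 with normexp. At day 7 (11) it was 4 with no slide term, 5 within slide 1, 4 without the slide 1 day 0 arrays, 7 with the 75th percentile over probes above background on all arrays 6 with no filter and 16, the highest, with normexp. At day 14 (0) it was 8 with no slide term and 2 on probes above background throughout. For day 7 against day 3 (0) it was 2 with normexp. For day 14 against day 7 (0) it was 5 with no slide term, 5 without the slide 1 day 0 arrays, 10 with normexp, 1 with the series table and 2 on probes above background throughout. For the F-test (9) it was 1 with no filter and 12 with normexp. Leaving out each RNA sample in turn gave 0 to 2 members at day 3, 0 to 12 at day 7, 0 to 1 at day 14, 0 in every case for day 7 against day 3, 0 to 3 for day 14 against day 7, and 0 to 12 in the F-test. The lowest day 7 count came without day 0 RNA sample 2. When day 0 RNA sample 1 or 2 was left out, the within-sample correlation of the main fit was used, since 1 repeated sample remained. Day 14 against day 7 and the F-test gave no value within 1 slide. The cause of these moves was not tested.

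Over all features, the count ran from 0 (within slide 1) to 3492 (normexp) at day 3, from 107 (without day 0 RNA sample 2) to 7134 (normexp) at day 7, from 1 (within slide 2) to 3094 (no slide term) at day 14, from 0 to 730 for day 7 against day 3, from 5 to 4186 for day 14 against day 7, and from 79 to 6290 for the F-test. The replicate block called 2, 12, 0, 0, 1 and 8 members in the 6 tests. The numbers of the labels were not treated as pairing samples in the main fit. Of 11 same-numbered pairs on 1 slide, 3 had deviations that correlated above 0.1 (range -0.101 to 0.132). These deviations are from means of few arrays, and different-numbered pairs were not compared, so the correlations cannot exclude pairing. Depth limits members near background, such as Car9, Ccng2, Wsb1 and Stc2, and Plod2 on 2 arrays of slide 2.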
